A study of Homo sapiens with 6 samples.

Results

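The clustered histone genes were the 73 rows of the deposited table, of 23290 gene symbols in all, whose symbol starts with HIST1, HIST2, HIST3 or HIST4. They divided into 6 linker histone H1 genes, 18 H2A, 20 H2B, 14 H3 and 15 H4 genes. RNA was measured in U87, an established human glioblastoma cell line, in 2 groups of 3 libraries. The control group, called shCTR, had received a retroviral vector with a scrambled sequence, and the other group, called shC8, a retroviral vector that silences CASP8, the initiator protease of death receptor signalling. Both groups were thus infected cells grown in serum, and the series calls the libraries of a group biological replicates without saying how the cultures were separated, so the p-values measure the spread between these libraries.

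Most of these genes encode the histones that package newly replicated DNA, and they are transcribed mainly in S phase. Nearly all lack introns, and their mRNAs end in a conserved stem-loop in place of a poly(A) tail. The stem-loop is bound by SLBP, and the end is cut by a complex that contains the U7 small nuclear RNA, LSM11 and CASP8AP2, a protein also named FLASH that was first described as a partner of caspase-8. The libraries were made from total RNA after removal of ribosomal RNA, a preparation that does not select for poly(A) tails. In bulk RNA, a larger share of cells in S phase and more histone mRNA per cell cannot be told apart.

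The promoters of the types differed in their known elements, and 1 promoter of a called gene is shown for each of H1, H2A, H2B and H4. Each run is the 120 bases before the start that RefSeq gives in GRCh38.p14, written 5′ to 3′ on the strand of the gene, with the searched motifs in capitals where they occur on either strand: ATTTGCAT (the octamer bound by OCT1), TATAAA (the TATA box), CCAAT, and AAACACA (the AC box of H1 genes).
HIST1H1E (chr6:26156209-26156328, plus strand): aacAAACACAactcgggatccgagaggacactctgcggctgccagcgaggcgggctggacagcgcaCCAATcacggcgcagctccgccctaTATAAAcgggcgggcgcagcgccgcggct
HIST1H2AB (chr6:26033619-26033738, minus strand): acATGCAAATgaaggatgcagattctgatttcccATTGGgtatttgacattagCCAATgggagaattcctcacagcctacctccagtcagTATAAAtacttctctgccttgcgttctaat
HIST2H2BE (chr1:149886683-149886802, minus strand): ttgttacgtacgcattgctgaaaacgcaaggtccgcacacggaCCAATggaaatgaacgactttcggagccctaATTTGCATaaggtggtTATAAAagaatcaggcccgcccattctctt
HIST1H4D (chr6:26189113-26189232, minus strand): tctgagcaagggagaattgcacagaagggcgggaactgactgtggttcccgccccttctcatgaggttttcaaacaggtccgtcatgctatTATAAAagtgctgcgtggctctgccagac
Of the 58 members that could be tested, 51 had a RefSeq promoter. Within 250 bases before the start, the octamer was present in 10 of 13 H2A and 13 of 17 H2B promoters and in 0 of the H1, H3 and H4 promoters, against 1.63% of all 35116 RefSeq promoters. The AC box was present in 5 of 5 H1 promoters and in 0 of the other types, against 4.82% of all promoters. CCAAT was present in every tested H1, H2A, H2B and H3 promoter matched and in 1 of 7 H4 promoters, against 32% of all. TATAAA was present in 3 of 5 H1, 9 of 13 H2A, 11 of 17 H2B, 7 of 9 H3 and 5 of 7 H4 promoters, against 10.7% of all. H2A and H2B genes often lie head to head, so an octamer can be counted for both partners of a pair, and a match is a description of the letters only.

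The GENCODE 29 transcripts were searched along their length for the letters of the histone stem-loop, 2 arms of 6 bases around a loop of 4 bases. The pattern limited the letters allowed at most places of the arms and did not test their pairing. The runs below show an H2B gene of the HIST1 cluster, an H2B gene of the HIST2 cluster and the single HIST4 gene, in GRCh38, with the arms of the stem in capitals.
HIST1H2BD (chr6:26158582-26158607, plus strand): ccaaaGGCTCTtttaAGAGCCacgca
HIST2H2BF (chr1:149811880-149811905, minus strand): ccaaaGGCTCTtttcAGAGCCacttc
HIST4H4 (chr12:14770719-14770744, minus strand): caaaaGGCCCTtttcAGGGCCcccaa
A stem-loop was found in 25 of the 58 tested members. The arm GGCTCT was carried by 5 H2A, 12 H2B and 3 H3 genes, and the arm GGCCCT by all 5 H4 genes with a stem-loop. No match says only that these letters are not in the annotated transcript.

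CASP8, which checks the labels, measured 15.1, 14.9 and 13.4 FPKM in shCTR, against 4.39, 4.46 and 4.44 FPKM in shC8, where FPKM is a fragment count scaled by transcript length and library size. All library values are given in the order of replicates 1, 2 and 3. The change of CASP8 was -1.51 (SE 0.0705, adjusted p = 0.000206), as a difference of mean log2(FPKM + 1) between shC8 and shCTR. This scale is used for every log2 change here, and it understates the change of low genes. The FPKM columns summed to between 489055 and 516634, and the files give no read depth, so no counting error could be set beside a value. Of the glioma markers, NES, VIM, CD44 and SOX9 were expressed, whereas GFAP, S100B, SOX2 and OLIG2 had means under 1 FPKM, with 0.511 FPKM as their highest value. CD44 fell by 0.45 on the log2 scale (adjusted p = 0.0131). NES rose by 0.60 (adjusted p = 0.0293), a call lost without shCTR 1, shCTR 3, shC8 2 or shC8 3 (highest adjusted p 0.0962). SOX9 rose by 0.36 (adjusted p = 0.0411), a call that median-of-ratios scaling ended (adjusted p = 0.0686) and that held only without shC8 1 among the fits without 1 library (highest adjusted p 0.122). The markers of leukocytes, endothelium, epithelium and neurons (PTPRC, PECAM1, EPCAM and RBFOX3) summed to 0.890 to 1.62 FPKM per library.

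Histone mRNA was higher in shC8 for part of the genes. Of the 58 tested members, those with a mean of at least 1 FPKM, 15 rose at an adjusted p under 0.05 (25.9%), 0 fell and 43 did not pass the test. Over all 11598 tested genes 7.14% rose and 4.94% fell. The 15 were 3 of 5 H1, 4 of 14 H2A, 5 of 19 H2B, 1 of 11 H3 and 2 of 9 H4 genes. At an unadjusted p under 0.05, limma placed 24 of the 58 members higher and 0 lower, against 2125 and 1324 of the 11598 tested genes. The rises were moderate, from 1.28-fold for HIST1H3I to 1.65-fold for HIST4H4 in mean FPKM.

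The median change of the 58 members was 0.23, within a range of -0.25 to 0.66, and the median over all tested genes was 0.04. A positive change was seen in 50 members (86.2%), against 57.9% of all tested genes. The 3 shC8 values lay above all 3 shCTR values in 24 members (41.4%), against 21.7% of all tested genes, and below them in 0, against 13.1%. With the replicate number as a block, 23 members rose and 1, HIST1H2BK, which is named after its values were seen, fell (adjusted p = 0.0494), against 16.1% and 10.6% of all tested genes. After median-of-ratios scaling, which brought the median of all genes from 0.0376 to 0.00265, 11 members rose, against 5.6% of all genes, and the median of the members was 0.193. With 1 library left out, 0 members fell, and the number that rose was 6 without shCTR 1 (2.86% of all genes), 10 without shCTR 2 (3.37%), 7 without shCTR 3 (4.17%), 11 without shC8 1 (6.14%), 7 without shC8 2 (2.58%) and 6 without shC8 3 (2.44%). Quantile normalization gave 17 that rose, against 6.16% of all genes. A pseudocount of 0.1 FPKM gave 15 (7.3% of all genes), a minimum mean of 5 FPKM 15 (7.74%), and no mean trend 11 (6.91%). Testing every gene with a value above 0 gave 6 of 66, against 3.08%.

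**Figure D1:**
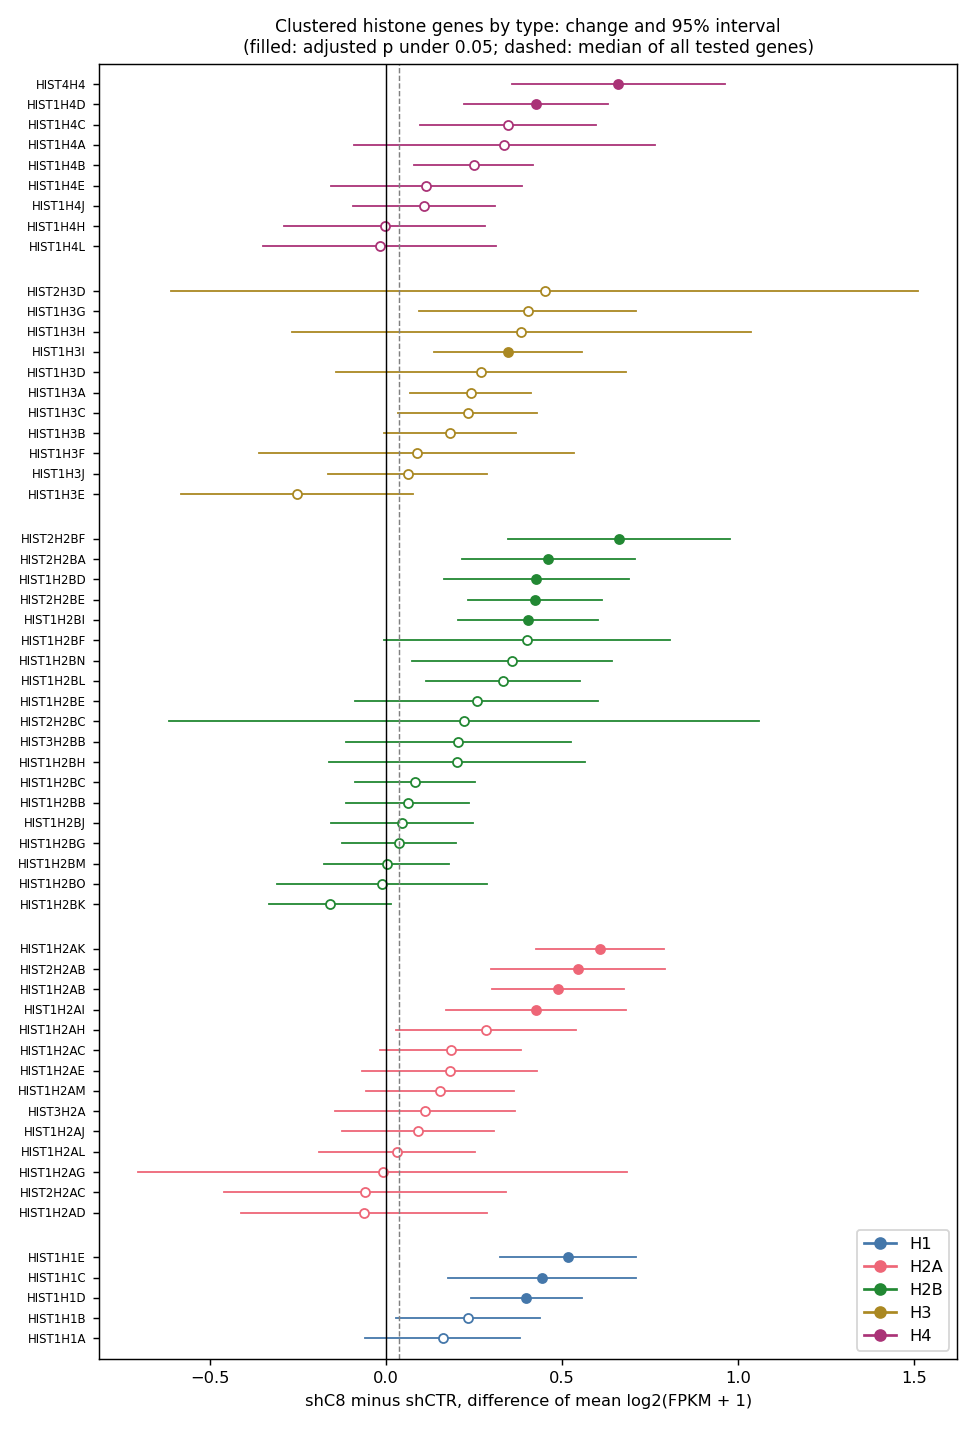
Difference of mean log2(FPKM + 1), shC8 minus shCTR, with its 95% interval for each of the 58 tested members, grouped by histone type; filled points passed an adjusted p of 0.05 and the dashed line is the median over all tested genes. The filled points lie between 0.35 and 0.66, and the lowest point, HIST1H3E, named after its values were seen, is at -0.25.

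The size of the difference varied with the libraries. Relative to each gene's mean over the 6 libraries, the median of the tested members was -0.19, -0.06 and -0.13 in shCTR and 0.21, 0.12 and 0.03 in shC8. The groups did not overlap on this measure, and shC8 replicate 1 was the highest library. Within the pairs of equal replicate number, the median change of the members was 0.35, 0.20 and 0.14, and that of all tested genes 0.06, 0.03 and 0.02. The numbers in the deposited column names fell into 2 ranges, whose meaning is not stated, with shCTR 1, shCTR 3 and shC8 1 in the lower range. The median change of the members was 0.34 within the lower range and 0.14 within the upper range, and the part of this split in the result was not tested beyond these values. With the range as a term, 11 members rose, against 6.32% of all tested genes.

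The summed FPKM of the 73 members was 11585, 12761 and 12232 in shCTR and 14351, 13891 and 13447 in shC8. These groups did not overlap. The means were 12193 ± 589 and 13896 ± 452 (SD, n = 3 libraries), a ratio of 1.14, and the sum made up 2.32% to 2.56% of the column in shCTR and 2.73% to 2.84% in shC8. By type, the H1 genes had the highest ratio, with sums of 1043, 1219 and 1120 FPKM in shCTR against 1548, 1454 and 1428 FPKM in shC8, a ratio of 1.31. The H2B and H3 sums had ratios of 1.16 and 1.17, also without overlap between groups. The H2A sum, with a ratio of 1.07, and the H4 sum, with a ratio of 1.15, overlapped between the groups. As a share of the column, H4 made up 0.306%, 0.287% and 0.281% in shCTR and 0.363%, 0.329% and 0.310% in shC8, without overlap. The H2A shares overlapped.

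**Figure D2:**
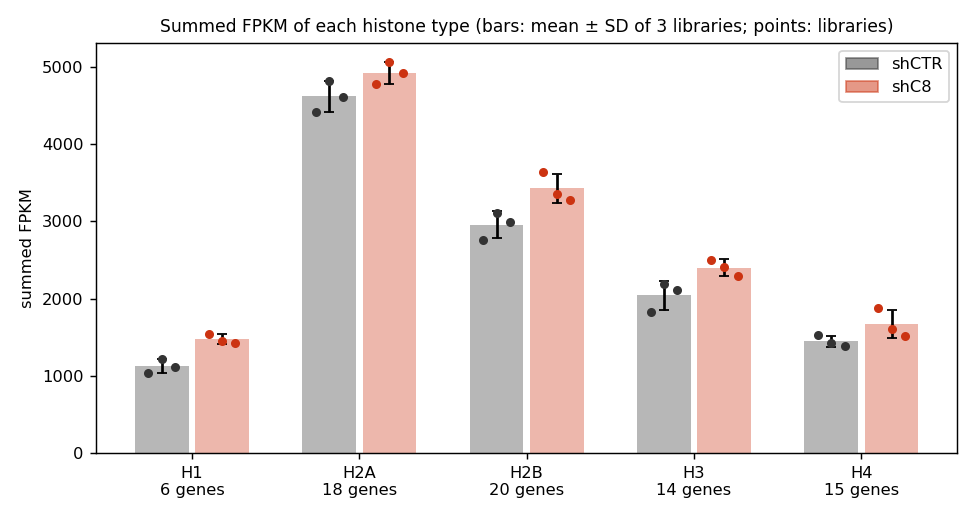
Summed FPKM (linear axis from 0) of the genes of each histone type, with bars for the mean ± SD of 3 libraries in each group and points for the libraries. The H1, H2B and H3 points of shC8 all lie above those of shCTR, and the H2A and H4 points overlap.

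The linker histones H1 bind the DNA between nucleosomes and compact chromatin, and 3 of the 5 tested H1 genes rose. HIST1H1E measured 294, 345 and 304 FPKM in shCTR, against 465, 430 and 452 FPKM in shC8. The lowest shC8 library was thus above the highest shCTR library, and the change was 0.52 (SE 0.0830, adjusted p = 0.0111), or 1.43-fold. HIST1H1D measured 250, 273 and 260 FPKM in shCTR, against 356, 344 and 332 FPKM in shC8, and it changed by 0.40 (SE 0.0679, adjusted p = 0.0132). HIST1H1C measured 182, 246 and 209 FPKM in shCTR, against 306, 285 and 270 FPKM in shC8. Its change of 0.44 (SE 0.114, adjusted p = 0.0470) lost the call without any library but shCTR 2 (highest adjusted p 0.114) and after median-of-ratios scaling (adjusted p = 0.0574). HIST1H1E and HIST1H1D kept the call without each of the 6 libraries in turn. HIST1H1B measured 262, 307 and 301 FPKM in shCTR, against 363, 337 and 322 FPKM in shC8, and its change of 0.23 did not pass the test (adjusted p = 0.125) although the groups did not overlap. The median change of the tested H1 genes was 0.40, and all 5 matched promoters held the AC box shown above.

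H2A forms the outer dimers of the nucleosome with H2B, and 4 of the 14 tested H2A genes rose, with a median change of 0.17. HIST1H2AK measured 92.6, 108 and 99.6 FPKM in shCTR, against 157, 158 and 143 FPKM in shC8. With 1.53-fold and a log2 change of 0.61 (SE 0.0778, adjusted p = 0.00537) it had the lowest adjusted p of the members. HIST1H2AB measured 63.8, 77.8 and 68.4 FPKM in shCTR, against 98.8, 98.7 and 97.5 FPKM in shC8, and it changed by 0.49 (SE 0.0804, adjusted p = 0.0118). Both kept the call without each library in turn. HIST2H2AB measured 109, 98.1 and 94.5 FPKM in shCTR, against 171, 138 and 135 FPKM in shC8, and its change of 0.55 (SE 0.106, adjusted p = 0.0197) lost the call without shCTR 2 or shCTR 3 (highest adjusted p 0.0628). HIST1H2AI measured 85.5, 105 and 86.8 FPKM in shCTR, against 136, 127 and 110 FPKM in shC8. Its change of 0.42 (SE 0.110, adjusted p = 0.0470) held only without shCTR 2 among the fits without 1 library (highest adjusted p 0.136), and median-of-ratios scaling ended it (adjusted p = 0.0585).

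The 3 H2A genes with the highest level per length did not pass the test. HIST2H2AC, the most abundant member with a mean of 1399 FPKM and 10.7% of the summed histone FPKM, measured 1463, 1220 and 1583 FPKM in shCTR, against 1057, 1543 and 1531 FPKM in shC8. The groups overlapped, with the lowest value in shC8 replicate 1, and the change was -0.06 (95% interval -0.46 to 0.34, adjusted p = 0.853). HIST1H2AJ measured 1016, 1152 and 983 FPKM in shCTR, against 1124, 1166 and 1061 FPKM in shC8, a change of 0.09 (95% interval -0.12 to 0.31). HIST1H2AM measured 353, 416 and 360 FPKM in shCTR, against 447, 414 and 393 FPKM in shC8, a change of 0.15 (adjusted p = 0.299). HIST3H2A measured 14.1, 17.2 and 15.8 FPKM in shCTR, against 18.1, 18.6 and 14.6 FPKM in shC8, a change of 0.11 (adjusted p = 0.539). HIST1H2AG, named after its values were seen, was at 497 FPKM in shCTR replicate 2 and at 199 to 296 FPKM in the other libraries.

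Of the 19 tested H2B genes 5 rose, and the median change was 0.22. HIST2H2BE measured 98.5, 116 and 116 FPKM in shCTR, against 148, 142 and 152 FPKM in shC8. It changed by 0.42 (SE 0.0813, adjusted p = 0.0192), and leaving out shC8 3 ended the call (adjusted p = 0.0749). HIST2H2BF measured 68.5, 86.5 and 81.0 FPKM in shCTR, against 119, 108 and 150 FPKM in shC8. It showed the highest log2 change of the members, 0.66 (SE 0.135, adjusted p = 0.0234), with a call that was lost without shCTR 1, shCTR 3 or shC8 3 (highest adjusted p 0.0698). HIST1H2BI measured 253, 282 and 287 FPKM in shCTR, against 394, 348 and 346 FPKM in shC8, a change of 0.40 (SE 0.0846, adjusted p = 0.0258). HIST1H2BD, whose stem-loop is shown above, measured 344, 459 and 412 FPKM in shCTR, against 570, 528 and 525 FPKM in shC8, a change of 0.43 (SE 0.112, adjusted p = 0.0493). HIST2H2BA, a transcribed pseudogene, measured 12.0, 15.2 and 15.4 FPKM in shCTR, against 20.2, 18.3 and 21.1 FPKM in shC8, a change of 0.46 (adjusted p = 0.0329).

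Each of these last 3 H2B genes kept its call in 1 of the 6 fits without a library: HIST1H2BI without shC8 1 (highest adjusted p 0.0762 otherwise), HIST1H2BD without shCTR 2 (up to 0.121) and HIST2H2BA without shCTR 3 (up to 0.108). Median-of-ratios scaling ended the call of HIST1H2BD (adjusted p = 0.0595). With the replicate block, 8 H2B genes rose (42.1%) and HIST1H2BK fell, against 16.1% and 10.6% of all tested genes. HIST1H2BK measured 129, 145 and 136 FPKM in shCTR, against 119, 131 and 118 FPKM in shC8, a change of -0.16 that did not pass the test without the block (adjusted p = 0.200). HIST1H2BC measured 442, 451 and 416 FPKM in shCTR, against 488, 453 and 445 FPKM in shC8, a change of 0.08 (adjusted p = 0.496). HIST3H2BB measured 27.3, 23.4 and 18.7 FPKM in shCTR, against 28.4, 27.8 and 23.6 FPKM in shC8, a change of 0.21 (adjusted p = 0.357). HIST2H2BC stayed between 1.18 and 4.47 FPKM in the 6 libraries, with overlapping groups.

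**Figure D3:**
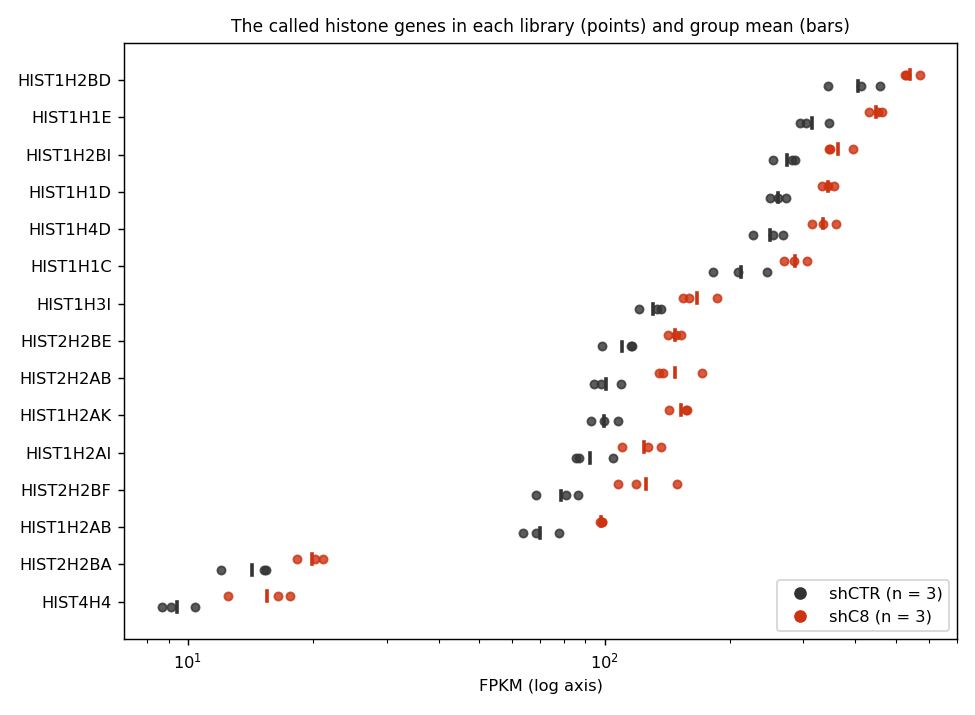
FPKM (log axis) of the 15 members that rose, with a point for each library and a bar for the mean of each group of 3. In each of the 15 genes every shC8 point lies to the right of every shCTR point, which their choice by a call on these same values favours. Of all tested genes, 21.7% show this separation.

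H3, with H4 at the core of the nucleosome, carries the tail that holds many of the known histone marks, and 1 of the 11 tested H3 genes rose. HIST1H3I measured 121, 137 and 134 FPKM in shCTR, against 186, 159 and 154 FPKM in shC8. Its change of 0.35 (SE 0.0904, adjusted p = 0.0486) was lost without any 1 of the 6 libraries (highest adjusted p 0.137) and after median-of-ratios scaling (adjusted p = 0.0525). HIST1H3C, the most abundant H3 gene, measured 532, 625 and 608 FPKM in shCTR, against 702, 679 and 688 FPKM in shC8. Its groups did not overlap, and its change of 0.23 did not pass the test (adjusted p = 0.117). HIST1H3G measured 227, 314 and 310 FPKM in shCTR, against 370, 395 and 350 FPKM in shC8, a change of 0.40 that passed with the replicate block only (adjusted p = 0.0893 without it and 0.0363 with it). HIST1H3B measured 292, 322 and 292 FPKM in shCTR, against 363, 349 and 317 FPKM in shC8, a change of 0.18 (adjusted p = 0.181). With the block 4 H3 genes rose (36.4%), against 16.1% of all tested genes. The median change of the 11 was 0.24 without the block.

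HIST2H3D, the tested H3 gene of the HIST2 cluster, measured 107, 48.8 and 47.3 FPKM in shCTR, against 169, 56.0 and 67.1 FPKM in shC8, so that replicate 1 was the highest library of both groups. The change was 0.45 with a 95% interval of -0.61 to 1.51 (adjusted p = 0.547), and the replicate block gave an adjusted p of 0.0186.

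The H4 genes encode the most conserved of the core histones, and 2 of the 9 tested H4 genes rose, with a median change of 0.25. HIST4H4, the single gene on chromosome 12, measured 9.10, 8.68 and 10.4 FPKM in shCTR, against 17.6, 16.5 and 12.5 FPKM in shC8. Its 1.65-fold rise was the highest ratio of the called members (log2 change 0.66, SE 0.129, adjusted p = 0.0202), and the call was lost without shCTR 1, shCTR 2 or shC8 2 (highest adjusted p 0.0712). HIST1H4D measured 254, 268 and 227 FPKM in shCTR, against 358, 334 and 314 FPKM in shC8, a change of 0.43 (SE 0.0874, adjusted p = 0.0237). That call was lost without shCTR 1, shCTR 3, shC8 2 or shC8 3 (highest adjusted p 0.0706). HIST1H4C measured 178, 217 and 207 FPKM in shCTR, against 285, 253 and 230 FPKM in shC8, a change of 0.35 (adjusted p = 0.0761). HIST1H4E, the most abundant H4 gene, measured 478, 396 and 409 FPKM in shCTR, against 534, 433 and 425 FPKM in shC8, a change of 0.11 (adjusted p = 0.553), with overlapping groups. With the replicate block 4 H4 genes rose (44.4%), against 16.1% of all tested genes.

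By cluster, 10 of the 48 tested HIST1 genes on chromosome 6 rose, with a median change of 0.22, and 5 of the 10 tested genes of the other clusters, with a median of 0.44. The difference between these was not tested. Over all 11598 tested genes 7.14% rose and the median change was 0.04, the shares to set beside each count here. Along chromosome 6, in GRCh38, the HIST1 genes fell into 4 stretches separated by gaps over 200 kb. Of the 29 tested genes between 26017085 and 26285638, 7 rose, with a median change of 0.24. Of the 4 tested genes between 27125897 and 27147515, 0 rose by limma, 1 was higher at an unadjusted p under 0.05, and the median was 0.02. Of the 15 tested genes between 27807444 and 27893843, 3 rose, with a median of 0.15. The first stretch, between 25726132 and 25732827, held 3 genes, and 0 of them passed the filter on low values. On chromosome 1, 4 of the 7 tested HIST2 genes rose, with a median of 0.45. The 4 include the pseudogene HIST2H2BA, which starts at 121108210, far from the other tested HIST2 genes, which start at 149782689 or beyond. The summed FPKM of the HIST2 genes overlapped between the groups, with a ratio of 1.07. The tested HIST3 genes HIST3H2A and HIST3H2BB, at 0.11 and 0.21, did not pass the test.

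**Figure D4:**
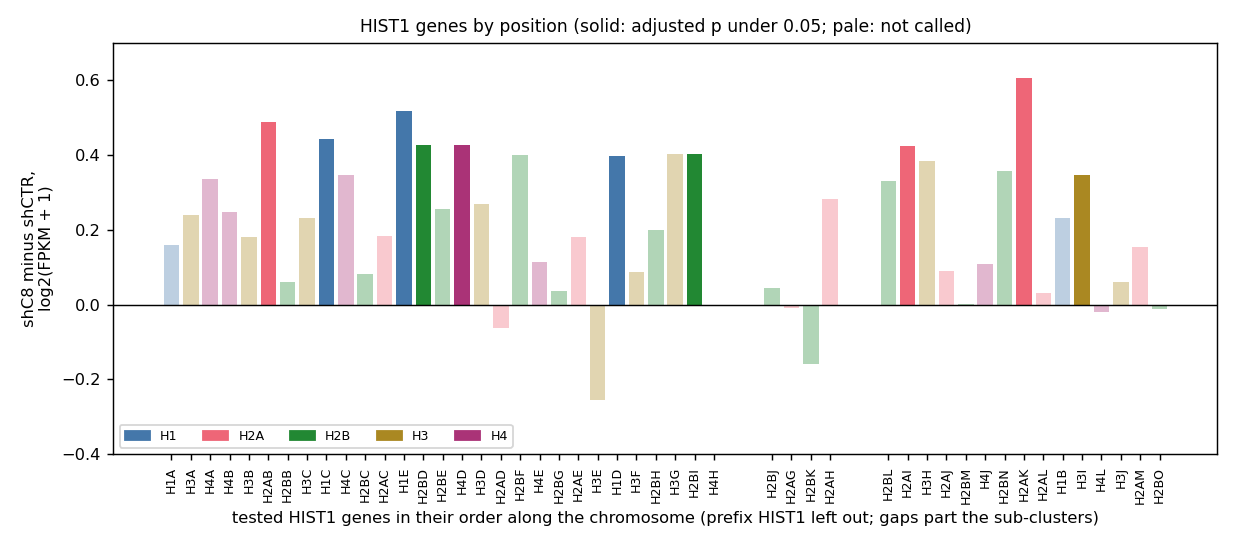
Difference of mean log2(FPKM + 1), shC8 minus shCTR, for the tested HIST1 genes in their order along chromosome 6, coloured by histone type, with solid bars for genes with an adjusted p under 0.05. Genes that rose stand in the stretches of 29 and 15 tested genes, beside neighbours that did not pass the test.

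H2A and H2B genes that lie head to head share the stretch between their starts. In 10 pairs of a tested H2A and a tested H2B gene, the annotated 5′ ends lay head to head, 219 to 331 bases apart. In 0 of the 10 pairs did both partners rise, in 2 pairs 1 partner rose, and in 8 pairs neither passed the test. Over all tested genes 7.14% rose, 16.1% with the replicate block and 6.16% with quantile normalization. The pair counts alone do not say whether partners change together. With the replicate block, and also with quantile normalization, both partners rose in 1 pair, HIST1H2AI with HIST1H2BL (adjusted p of 0.0173 and 0.0116 with the block), and 1 partner in 1 other pair. HIST2H2BE, at 0.42, lies opposite HIST2H2AC, at -0.06. HIST1H2AI, at 0.42, lies opposite HIST1H2BL, at 0.33 and named after its values were seen. The log2 changes of partners differed by 0.06 to 0.48, and these differences were not tested. HIST1H2AK, at 0.61, is not among the 10 pairs because the annotated gene of HIST1H2BN overlaps it, and HIST1H2BN, named after its values were seen, changed by 0.36 (adjusted p = 0.0983, and 0.0140 with the replicate block).

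Shared sequence limits what the rows of single members mean. Of the 15 members below the filter, 7 were listed at 0 in all 6 libraries, and the other 8 did not exceed 0.404 FPKM in any library. More than 90% of the stretches of 50 bases in the transcripts of 7 of the 15 also occur in another annotated gene, among them HIST2H2AA3 and HIST2H2AA4, HIST2H3A and HIST2H3C, HIST2H4A and HIST2H4B, and HIST1H4K, all named after their values were seen. How the authors' counting divided such reads is not given in the sources used here, so these values may not be those of the gene. The count took only the shortest annotated transcript of each member, a coding one where there is one, and searched all transcripts of other genes. By that count, 27 tested members share 0 such stretches and 14 share 20% or more. In the 44 members under 20%, 12 rose (27.3%) and the median change was 0.23. In the 14 others 3 rose (21.4%) and the median was 0.24. Over all tested genes 7.14% rose and the median was 0.04. The uncertain called members are HIST1H2AI, which shares 62.3% of its stretches, HIST2H2BF, with 59.5%, and HIST2H2BA, with 56.3%. HIST2H2AC shares 30.5%, HIST1H2BN 31.3%, HIST1H2BK 74.1%, HIST2H2BC 79.7%, HIST2H3D 80.4%, HIST1H2AJ 83.7% and HIST1H2AM 86.3%. The stretches that HIST1H2AI and HIST1H2AJ share are with each other. Those of HIST1H2AM are shared with HIST1H3J, named after its values were seen, whose annotated gene overlaps it on the same strand. The shortest transcript of HIST1H3J itself counts 0, so the split can misplace members whose longer transcripts overlap a neighbour. Some members also have an annotated transcript that runs at least 200 bases past the stem-loop. Of these 18, 3 rose (16.7%) with a median change of 0.21, against 7.14% and 0.04 over all tested genes. Of the other 40, 12 rose (30%) with a median of 0.24. Only the 25 tested members with a stem-loop in an annotated transcript could enter the 18. The other 40 thus include members without such a match, and the split follows the annotation, not measured transcript ends.

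Of 35 genes for the transcription, processing and decay of histone mRNA, 2 rose (5.71%) and 1 fell (2.86%), against 7.14% and 4.94% of all tested genes. The median change of the 35 was 0.01. SLBP, which binds the stem-loop, measured 70.2, 75.9 and 69.6 FPKM in shCTR, against 68.2, 77.5 and 71.5 FPKM in shC8, a change of 0.01 (adjusted p = 0.949). NPAT, the transcriptional activator of histone genes, measured 4.22, 4.52 and 5.08 FPKM in shCTR, against 4.95, 5.52 and 5.80 FPKM in shC8, a change of 0.20 (adjusted p = 0.194). CASP8AP2 measured 10.1, 11.3 and 11 FPKM in shCTR, against 9.93, 11.7 and 11.3 FPKM in shC8, a change of 0.01 (95% interval -0.18 to 0.20).

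LSM11, a subunit of the U7 particle that cuts the histone 3′ end, measured 2.44, 2.55 and 2.22 FPKM in shCTR, against 3.52, 3.84 and 3.53 FPKM in shC8. It rose by 0.44 (adjusted p = 0.0166), a call lost without shCTR 3, shC8 2 or shC8 3 (highest adjusted p 0.0647). CDK2, the S phase kinase that phosphorylates NPAT, measured 38.9, 44.6 and 41.9 FPKM in shCTR, against 49.4, 50.7 and 51.8 FPKM in shC8. It rose by 0.27 (adjusted p = 0.0414), a call lost without any 1 of the 6 libraries and after median-of-ratios scaling (adjusted p = 0.0668). ERI1, an exonuclease that trims the stem-loop end and takes part in histone mRNA decay, measured 20.6, 21.4 and 20.7 FPKM in shCTR, against 17.8, 17.3 and 17.4 FPKM in shC8. Its change of -0.25 (adjusted p = 0.0331) kept the call only without shC8 1 among the fits without 1 library.

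Histone genes that are expressed outside S phase and lie outside the clusters had a median change of 0.14 in 8 tested genes, of which 1 rose and 0 fell by limma. At an unadjusted p under 0.05, 4 were higher and 0 lower, against 2125 and 1324 of all 11598 tested genes. A positive change was seen in 7 of the 8 (87.5%), and in 4 (50%) the groups did not overlap, with shC8 higher, shares close to the 86.2% and 41.4% of the clustered genes. Over all tested genes these shares were 57.9% and 21.7%. H2AFV, which encodes a variant of the H2A.Z type, measured 71.8, 75.1 and 68.5 FPKM in shCTR, against 89.4, 95.2 and 92.6 FPKM in shC8, a rise of 0.36 (adjusted p = 0.0138). Its call was lost without shC8 2 or shC8 3 (highest adjusted p 0.0575). The abundant H3F3B, which encodes a replacement H3, measured 316, 309 and 271 FPKM in shCTR, against 343, 315 and 289 FPKM in shC8, a change of 0.08 (adjusted p = 0.597). H2AFZ changed by -0.03 (adjusted p = 0.898) and H2AFY by 0.07 (adjusted p = 0.526). With the replicate block 3 genes of this list rose (37.5%), against 16.1% of all tested genes.

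Cell cycle genes were read beside the clustered histones, which are transcribed in S phase. Over all 11598 tested genes, 7.14% rose and 4.94% fell by limma, and 2125 were higher and 1324 lower at an unadjusted p under 0.05. Of 45 S phase genes 0 rose and 2 fell, with a median change of -0.03, and at an unadjusted p under 0.05 limma placed 2 higher and 4 lower. The 2 that fell load the sliding clamp on DNA: RFC4 measured 104, 100 and 98.4 FPKM in shCTR, against 86.9, 75.4 and 73.8 FPKM in shC8, a change of -0.36 (adjusted p = 0.0282), and RFC3 changed by -0.25 (adjusted p = 0.0341). The call of RFC4 held only without shC8 1 among the fits without 1 library, and that of RFC3 in none of these fits. With the replicate block 2 S phase genes rose and 3 fell, against 16.1% and 10.6% of all tested genes. Of 28 G2/M genes 1 rose, with a median of 0.06: TOP2A, a topoisomerase, changed by 0.27 (adjusted p = 0.0344), which median-of-ratios scaling ended (adjusted p = 0.0539), and which held only without shC8 1 among the fits without 1 library. At an unadjusted p under 0.05 limma placed 4 G2/M genes higher and 0 lower. A positive change was seen in 22 of the 28 (78.6%), against 57.9% of all tested genes. With the block 4 G2/M genes rose (14.3%), against 16.1% of all tested genes. Of 23 histone chaperone genes 0 rose and 0 fell, with a median of -0.01, and at an unadjusted p under 0.05 limma placed 2 higher and 3 lower.

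Other RNAs with a form that ends without a poly(A) tail were read as a companion list, with 1 value per gene symbol over all forms. The 12 of these RNAs in the table had a median change of 0.03, and 0 rose or fell by limma, also at an unadjusted p under 0.05. The replicate block placed 2 higher (16.7%), against 16.1% of all tested genes. MALAT1 measured 454, 563 and 475 FPKM in shCTR, against 290, 700 and 677 FPKM in shC8. NEAT1 measured 115, 125 and 103 FPKM in shCTR, against 62.4, 134 and 121 FPKM in shC8. Both were named after their values were seen. Both were lowest in shC8 replicate 1, the library in which the clustered histones were highest. Over the list, the median difference between the replicate 1 libraries was 0.27, with shC8 higher. Its summed FPKM was 20778, 27177 and 27539 in shCTR and 25806, 27686 and 29348 in shC8, lowest in shCTR 1. The part of these library differences in the histone result was not tested beyond the fits without 1 library. Without shC8 1, 11 members were higher.

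**Figure D5:**
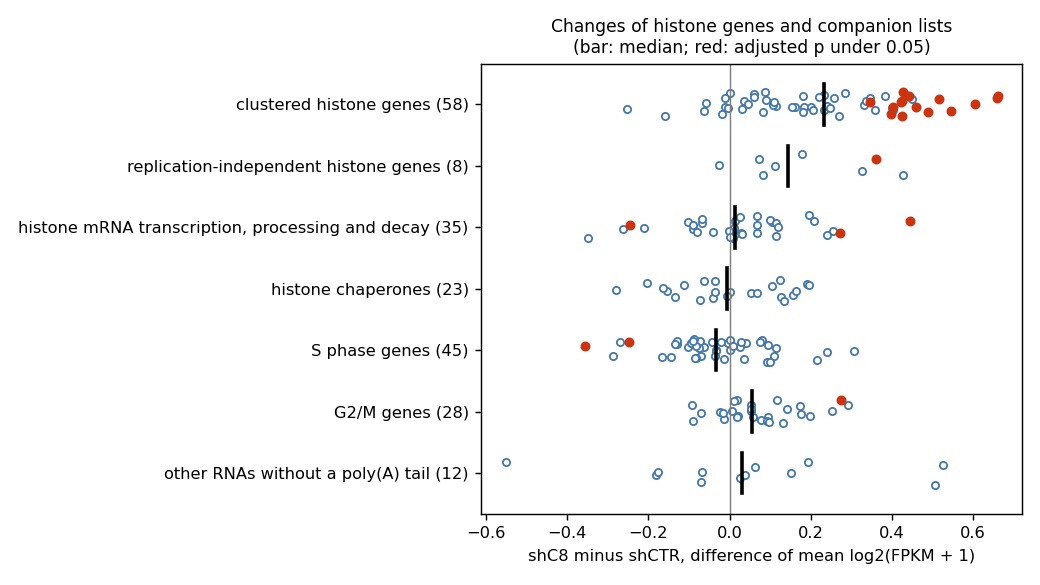
Difference of mean log2(FPKM + 1), shC8 minus shCTR, for the tested genes of the clustered histones and of each companion list, with the number of genes in brackets. The clustered histones have a median of 0.23, and the histone genes expressed outside S phase have a median of 0.14. The lists of processing factors, chaperones, S phase genes, G2/M genes and other RNAs without a poly(A) tail have medians from -0.03 to 0.06.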

How the data were processed

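The deposited table holds 1 FPKM value per gene symbol and library for 6 libraries. The submitters' processing notes list TopHat, Cufflinks, Cuffdiff and hg38, and versions, roles, annotation and strand setting are not given in the sources used here. Libraries were stranded total RNA after ribosomal RNA depletion, per the labels' protocols. The test was limma 3.58.1 (R 4.3.3) with a mean trend, two-sided, on log2(FPKM + 1), over the 11598 genes whose mean reached 1 FPKM, with Benjamini-Hochberg adjustment over all of them and calls under 0.05. On simulated data for the shC8 against shCTR comparison over 11598 genes, it recovered 56.0% of 100 genes changed by 0.5 and 89.0% of 100 changed by 1 (log2), with 5.23% of calls false. The simulation drew noise independently for each library, without the shared deviations of same-numbered libraries given below. Its shares may thus not hold for these data, and both sizes exceed the members' median change of 0.23. The members and the 8 companion lists were chosen with earlier results of these data known, so list counts and medians are descriptions without a test. Named genes were, in each type, the 3 of highest mean FPKM and the called members, all tested members of HIST2 to HIST4, CASP8, SLBP, NPAT and CASP8AP2, and the called members of the companion lists with the 3 most abundant replication-independent histones. Genes outside this rule are said to be named after their values were seen. Same-numbered libraries deviated together over all genes (correlations of 0.397, 0.266 and 0.291), so the replicate numbers were taken to pair the libraries, as a reading of the data that the labels do not state. Over the tested histones alone the correlations were 0.554, -0.0540 and -0.0831. Gene positions, shared stretches of 50 bases and stem-loops came from GENCODE 29 (GRCh38), in which all 73 members matched, and promoters from RefSeq (GRCh38.p14). The splits by shared sequence, by transcript end and by head-to-head pairs were chosen after values were seen. In all, 14 alternatives were run: another pseudocount, filters, scalings, the replicate block, no trend, the column number range, and each library left out.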

Additional observations from a re-analysis of the deposited data

How the results depend on the processing

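The 15 rises were all among the calls with a pseudocount of 0.1 FPKM, a minimum mean of 5 FPKM, quantile normalization (17 members higher) and the replicate block (23 higher, 1 lower). Of the 15, 11 were called with median-of-ratios scaling, 11 without the mean trend and 10 when the range of the column numbers was fitted. Without the filter on low values, 6 of the 66 members then tested rose, and all 6 were among the 15. Leaving out each library in turn left 6 (without shCTR 1 or shC8 3) to 11 (without shC8 1) higher, with 7 without shCTR 3 or shC8 2. In these fits 4 of the 15 members were called in all 6. The median change of the members lay between 0.18 and 0.28 in these 6 fits, at 0.20 without the filter, and at 0.19 with median-of-ratios scaling. Over 405 single-gene values of 29 named members, 331 kept direction and side of the threshold, 66 lost the call, 3 gained it and 5 reversed. The 5 reversals came from leaving out 1 library, where HIST2H2AC ranged from -0.17 to 0.12 (positive without shCTR 3 or shC8 1), HIST2H2BC from -0.086 to 0.53 (negative without shCTR 3 or shC8 3) and HIST2H3D from -0.034 (without shC8 1) to 0.83, and the cause was not tested. The read depth behind the FPKM values is unknown, and 3 libraries a group limit the precision.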
